A study of Homo sapiens with 32 samples.

Results

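NAT10 is the enzyme that attaches an acetyl group to cytidine in RNA, which gives N4-acetylcytidine (ac4C). Its known substrates are 18S rRNA, where it works with guide snoRNAs, and the leucine and serine tRNAs, where it works with the adaptor THUMPD1. Sodium cyanoborohydride (NaCNBH3) reduces ac4C in acid to a base that reverse transcriptase reads as T, so acetylation appears as C-to-T (C>T) misreading in NaCNBH3 libraries that is low or absent in libraries from mock-treated RNA.

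The data described here are the 8 libraries, of 32 in the series, from Hep3B cells that had NAT10 restored or lacking. Hep3B is an established human hepatocellular carcinoma line. In the cells used, a clonal line selected with hygromycin and G418, the endogenous NAT10 gene carried an FKBP12-F36V degron at its C terminus, and all cells compared received the degrader dTAGV1 at 100 nM for 24 hours. NAT10-WT cells also carried a lentiviral wild-type NAT10 gene driven by the EF1A promoter, and NAT10(-) cells carried a control plasmid with YFP in its place. Both were selected with blasticidin at 5 ug/ml for 5 days. There were 2 replicates per genotype, described in the methods as independent transductions, and each RNA was split into a mock and a NaCNBH3 fraction, giving 4 mock and 4 NaCNBH3 libraries. Libraries of the same replicate number were compared, as the batch labels pair them. The question was which bases, and which RNAs by their relative depth, differed when NAT10 was put back.

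Each library gave base counts at 463897 to 1226866 genomic positions with 30 or more reads, with a median depth of 59 to 125 reads and 1376.7e6 to 1657.5e6 base calls. NAT10-WT replicate 2 covered the fewest positions and NAT10(-) replicate 2 the most. Depth levelled off at 20034 to 20046 reads. No pair of replicates shared more than 0.75% identical depths. Of 10 hepatocyte genes used as markers, 6 to 10 were covered at 50 or more positions in each library. NAT10 itself had 30 or more reads at 907 and 518 positions in the 2 NAT10-WT mock libraries, at 1082 and 649 in the NaCNBH3 libraries, and at 0 positions in every NAT10(-) library. Wildtype Hep3B libraries, with NAT10 untagged and no plasmid, also had 0 such positions, so these reads show the added gene in NAT10-WT and do not measure the depletion. The degron acts on the protein, which was not measured in these files.

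Every reference C with at least 30 reads in all 4 NaCNBH3 libraries was tested, with no minimum on T, by a two-sided Fisher's exact test in each replicate. To be called, a position had to pass an adjusted p of 0.05 in replicate 1 and again in replicate 2, with the same sign. Of 126830 C positions, 74 (0.0583%) were higher in NAT10-WT and 0 (0%) were lower. With identical copies summed before the test, 87 were higher and 40 lower. The test compares reads of paired libraries, and the spread between replicates enters only through the demand that both pass. Many of the 74 are copies of the rDNA or of a tRNA gene that share their reads, and counting each distinct 31-base sequence once leaves 25. The level at each sequence below is the percent of reads with T, with identical copies summed. Summing counts the same read more than once, so it does not add precision.

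The 25 sequences fell in a few kinds of RNA. Of rRNA and its precursor, 18S rRNA had 4 among 585 distinct sequences tested and the transcribed spacers of pre-rRNA had 3 among 3074. In 28S rRNA 1 among 1977 was called, and an rDNA-like locus on chromosome 5 had 1. Cytosolic tRNAs had 11 among 4017 distinct sequences tested, C/D snoRNAs had 4 among 2542 and H/ACA snoRNAs had 1 among 3136. In mRNA 57015 C positions were tested and 0 were called, but only 2552 of them had 300 or more reads in all 4 libraries. Mitochondrial mRNAs (3616 tested), snRNAs (2063) and long non-coding RNAs (973) also had 0 called.

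The neighbouring bases of the called positions are shown next, since most share a CCG with the called C in the middle. The sequences are 21 bases of GRCh38 on the strand of the RNA, 5′ to 3′, with the called C and its neighbours in capitals. The first block holds rRNA and its precursor, with coordinates on the RNA45SN2 copy of the rDNA. 18S C1337 lies at chr21:8210967-8210967, C1842 at chr21:8211472-8211472, C1317 at chr21:8210947-8210947 and C179 at chr21:8209809-8209809, all on the plus strand. In the external and internal spacers, 5′ ETS C2278 lies at chr21:8208265-8208265, ITS2 C1126 at chr21:8213853-8213853 and ITS2 C1122 at chr21:8213849-8213849.
18S rRNA C1337: ggtgcatggCCGttcttagtt
18S rRNA C1842: acaaggtttCCGtaggtgaac
18S rRNA C1317: ttctcgattCCGtgggtggtg
18S rRNA C179: taatacatgCCGacgggcgct
5′ ETS C2278: gcttcacgtCCGttggtggcc
ITS2 C1126: cgattccgtCCGtccgtccgc
ITS2 C1122: ggcgcgattCCGtccgtccgt

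The snoRNA sequences are shown because these small RNAs are not the substrates NAT10 is best known for. SNORD126 (chr14:20326496-20326496, minus strand, base 31 of 77) and SNORA79B (chr14:20323215-20323215, minus strand, base 112 of 148) both lie within CCNB1IP1. SNORD18B (chr15:66502061-66502061, minus strand, base 31 of 72) lies within RPL4. SNORD46 was called at base 42 of 104 and SNORD87 at base 34 of 89, and their sequences are not printed.
SNORD126: atgttaagtCCGtgtttcagc
SNORD18B: ttaattggtCCGtgtttctga
SNORA79B: gctggctgtCCGttagtgcct

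For the tRNAs, C12 is the base of the D arm that NAT10 is known to acetylate, and the sequence around it differed little between leucine and serine genes. TRS-AGA4-1 C12 lies at chr6:27553483-27553483 on the minus strand, TRS-GCT4-1 C12 at chr6:28597410-28597410 on the minus strand, and TRL-TAG2-1 C12 at chr14:20625381-20625381 on the plus strand. TRNAV-CAC C6, a base of the acceptor stem of a valine tRNA gene, lies at chr1:145157162-145157162 on the plus strand.
TRS-AGA4-1 C12: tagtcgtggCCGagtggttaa
TRS-GCT4-1 C12: acgaggtggCCGagtggttaa
TRL-TAG2-1 C12: gtagtgtggCCGagcggtcta
TRNAV-CAC C6: gtgtggtttCCGtagtgtagt

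Outside this pattern were 4 of the 25 sequences. The rDNA-like locus at chr5:175115089-175115089 (minus strand) differs from 18S C1337 by an A in place of the G that follows. TRN-GTT3-1 (chr1:144419331-144419331) and TRN-GTT2-7 (chr1:145287830-145287830), both asparagine tRNA genes called at base 65, share their sequence. 28S C3578 is at chr21:8217465-8217465.
rDNA-like: ggtgcatggCCAttcttagtt
TRN-GTT3-1: ttcgagcccACCcagggacgc
28S rRNA C3578: tcggccggcGCCtagcagccg

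CCG accounted for 11038 of the tested C positions (8.70%) and for 68 of the 74 called ones, or 21 of the 25 distinct sequences. The base after CCG differed as well. CCG followed by T had 51 called of 1770 (2.88%), CCG followed by A had 17 of 1720 (0.988%), CCG followed by C had 0 of 3857 and CCG followed by G had 0 of 3691. These counts take each copy of the rDNA apart. By distinct sequence, 12 of 901 were called with T, 9 of 1048 with A, 0 of 1825 with C and 0 of 1680 with G, so T and A lay closer together. All other C positions had 6 called of 115792 (0.00518%). The share called in CCG followed by T stood far above the 0.0583% over all C positions, while CCG followed by C or G had none despite more positions tested.

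**Figure D1:**
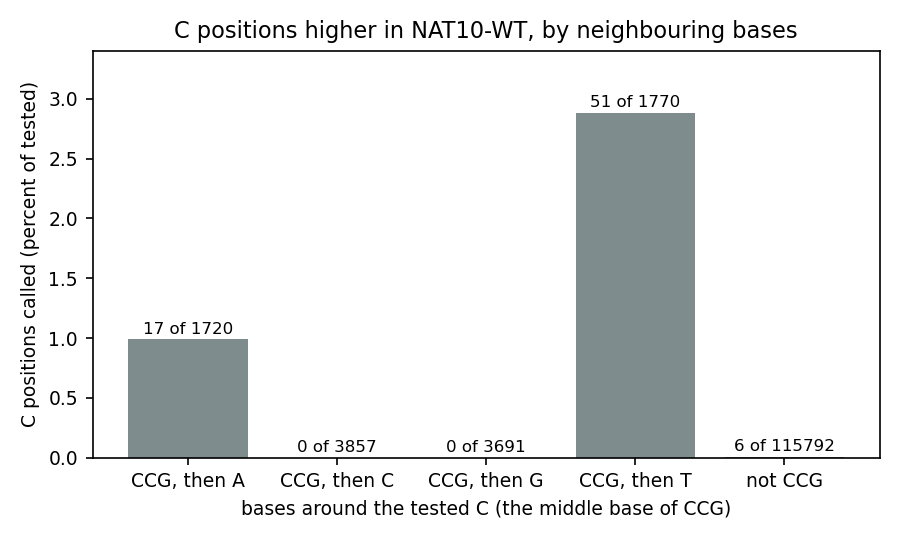
Percent of tested C positions called higher in NAT10-WT than in NAT10(-) in NaCNBH3 libraries, by the bases around the C, with the number called of the number tested above each bar. CCG followed by T (51 of 1770) and CCG followed by A (17 of 1720) hold 68 of the 74 calls, and copies of repeated genes are counted separately.

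The base before CCG was looked at after these values were seen. All 9 distinct CCGA sequences that were called have G before them, among 1048 distinct CCGA sequences tested of which 37.31% have G. Of the 12 distinct CCGT sequences called, 9 have T before them and 3 have G, where T stands before 24.31% and G before 32.74% of those tested. None of the 12 has A or C there. Over the CCG positions that were not called, T made up 0.163% of reads in NAT10-WT and 0.159% in NAT10(-). Over the other C positions not called the shares were 0.168% and 0.172%. Split by the next base, uncalled CCGT positions were at 0.122% in NAT10-WT against 0.111%, and uncalled CCGA positions at 0.109% against 0.101%. CCGC was at 0.123% against 0.120% and CCGG at 0.241% against 0.240%. In mock, uncalled CCGT was at 0.0563% against 0.0585% and CCGA at 0.0532% against 0.0558%. These pooled differences were not tested.

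Both main sites of 18S rRNA had high levels in NAT10-WT and a remainder in NAT10(-). At C1337, T was read in 62.3% and 72.9% of reads in the 2 NAT10-WT libraries and in 10.1% and 12% in NAT10(-), a mean of 67.6% ± 7.48 against 11% ± 1.35 (SD, n = 2 each). At C1842, in the helix near the 3′ end, the levels were 57.0% and 71.1% against 3.85% and 6.49%. Neither pair of groups overlapped. The level left in NAT10(-) was 16.3% of the NAT10-WT level at C1337 and 8.07% at C1842. The quasi-likelihood test of edgeR, on reads with T and reads with any other base, gave adjusted p = 9.72e-26 and 3.29e-38. It was run on each copy alone, and the edgeR adjusted p of a called sequence is that of its called copy with the most reads.

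Mock libraries showed a small trace of the same difference. C1337 was read as T in 1.37% and 0.866% of NAT10-WT mock reads and in 0.260% and 0.182% of NAT10(-) mock reads, and C1842 in 0.937% and 0.600% against 0.0818% and 0.0713%. In mock, 22 of 124022 C positions (0.0177%) were higher in NAT10-WT and 0 (0%) were lower, with 6 distinct sequences, of which 5 were also called in NaCNBH3: both 18S sites, both TRN-GTT genes and 28S C3578. With copies summed, 44 were higher and 33 lower in mock. The remaining distinct sequence was RNU5A-1, a U5 snRNA gene, at 1.03% and 0.55% against 0.50% and 0.25%.

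The other 18S positions were at far lower levels. C1317, 20 bases upstream of C1337, was read as T in 1.89% and 1.91% of NAT10-WT reads against 0.10% and 0.0967% in NAT10(-), a 19.3-fold difference. In its called copy of most reads the levels were 1.62% and 1.70% against 0.130% and 0.120% (edgeR adjusted p = 2.43e-17). C179 was at 0.574% and 0.395% against 0.0556% and 0.117%, a 5.62-fold difference, and edgeR gave adjusted p = 1.40e-06 in its called copy of most reads. At both sites the NAT10-WT libraries lay above the NAT10(-) libraries, but at a level below 2%. In mock, C1317 was at 0.117% and 0.101% against 0.0415% and 0.0406%.

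In the spacers, which are cut away as pre-rRNA matures, 5′ ETS C2278 stood out with 2.31% and 3.06% in NAT10-WT against 0.0528% and 0.152% in NAT10(-). That is a 26.3-fold difference, and mock levels were 0.0948%, 0.0355%, 0.0673% and 0.0209%. In the called copy of most reads C2278 was at 2.16% and 3.06% against 0.0679% and 0.150% (edgeR adjusted p = 1.16e-20). ITS2 C1126 was at 0.493% and 0.433% against 0.0611% and 0.0906%, and ITS2 C1122, 4 bases away in a repeat of the same letters, at 0.242% and 0.339% against 0.0556% and 0.0845%. Groups did not overlap at any of these 3 sites, and the relative level in NAT10(-) ran from 3.8% to 24.1% of NAT10-WT.

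At the snoRNAs the level in NAT10(-) was low. SNORD126, a C/D box RNA of the family that guides ribose methylation, had T in 48 of 338 and 47 of 320 NAT10-WT reads (14.2% and 14.7%) and in 0 of 386 and 1 of 658 NAT10(-) reads. Limits for counts of 0 are given as 3 divided by the reads, so 0 of 386 allows a share of up to 0.777%. The exact 95% binomial (Clopper-Pearson) interval of 0 of 386 runs wider, up to 0.951%, and that of the 1 read from 0.00385% to 0.844%. SNORD87 was at 11.5% and 11.1% in NAT10-WT against 0.144% and 0.0875%, with 2 T reads in each NAT10(-) library. Both snoRNAs had nearly equal levels in the 2 NAT10-WT libraries, and edgeR gave adjusted p = 5.31e-17 for SNORD126 and 2.47e-27 for SNORD87.

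SNORD18B was at 6.13% and 6.68% in NAT10-WT against 0.418% and 0.159% in NAT10(-) (edgeR adjusted p = 7.69e-11). SNORD46 was at 1.56% and 1.37% against 0.108% and 0.173%, a 10.4-fold difference (adjusted p = 6.77e-07). SNORA79B, an H/ACA box RNA of the family that guides pseudouridylation, was at 3.72% and 2.56% against 0 of 804 reads and 1 of 1086 reads (adjusted p = 2.24e-07), where 0 of 804 allows up to 0.373%. By their T reads these 5 snoRNA sites kept 0.526% to 9.61% of the NAT10-WT level in NAT10(-), beside 16.3% at 18S C1337 and 8.07% at C1842, and the values for SNORD126 and SNORA79B rest on 0 and 1 reads with T. In mock, all 5 were at most 0.962% in any library.

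**Figure D2:**
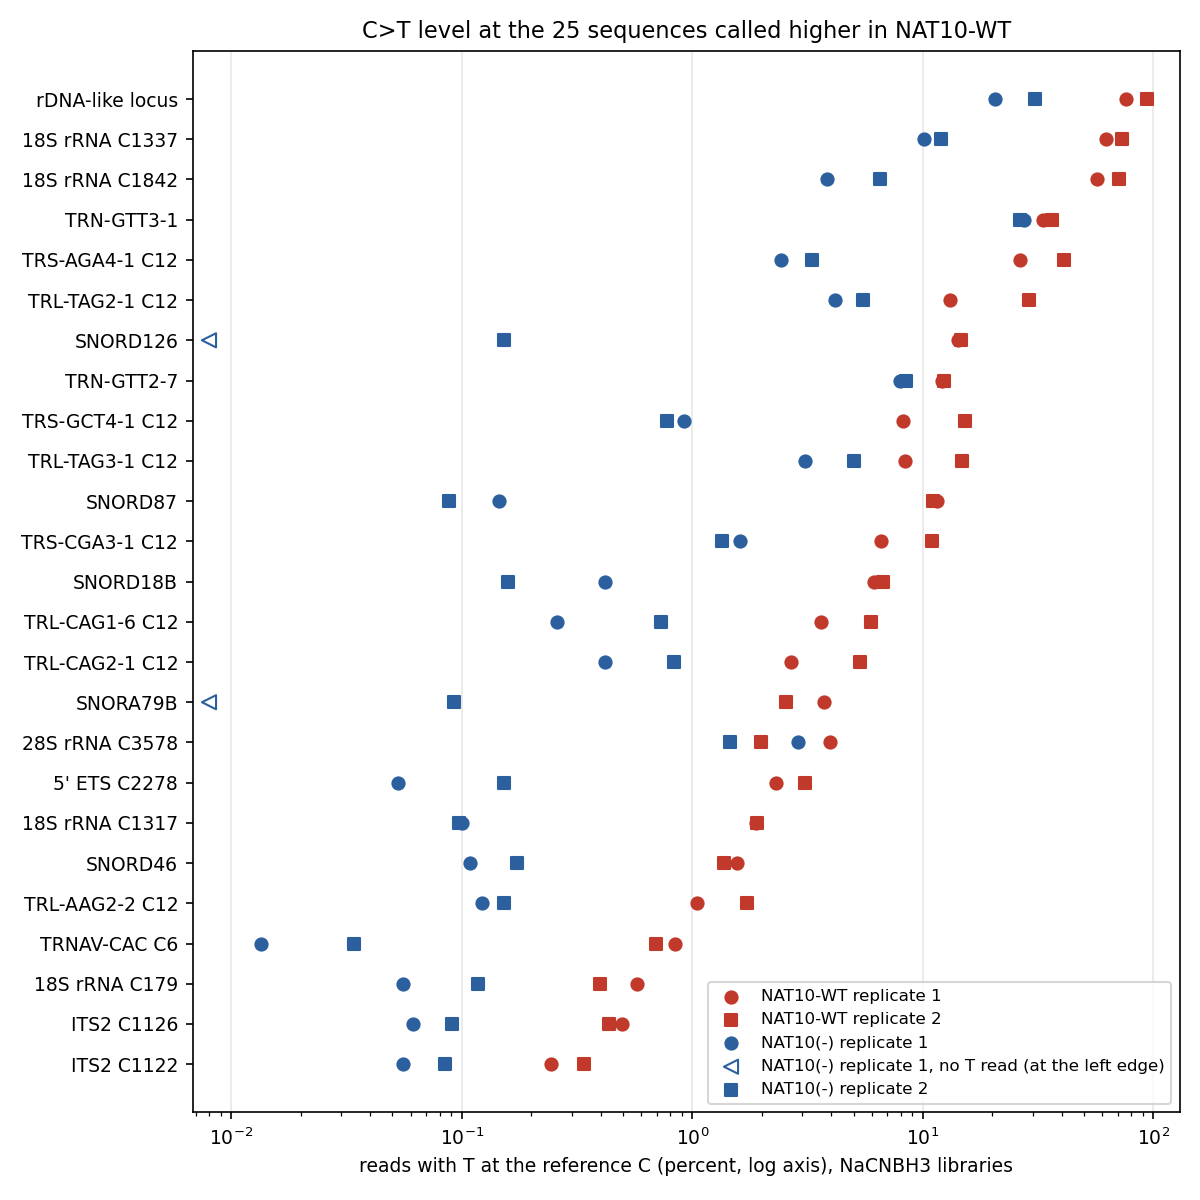
Percent of reads with T at the reference C (log axis) at the 25 distinct sequences called higher in NAT10-WT, in the 4 NaCNBH3 libraries, with 1 point per library and no error bars. NAT10-WT (red) lies to the right of NAT10(-) (blue) in each replicate, with the smallest gaps at TRN-GTT3-1, TRN-GTT2-7 and 28S rRNA C3578, and the widest at SNORD126, SNORD87 and SNORA79B.

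At C12 of the leucine and serine tRNAs 8 genes were called, and their levels varied more between the NAT10-WT replicates than at C1337 and C1842 of 18S rRNA. TRS-AGA4-1 was at 26.4% and 41.0% in NAT10-WT against 2.42% and 3.29% in NAT10(-). TRL-TAG2-1 was at 13.1% and 28.9% against 4.17% and 5.50%, and TRS-GCT4-1 at 8.23% and 15.3% against 0.919% and 0.780%. The level in NAT10-WT replicate 2 was 1.56 to 2.21 times that in replicate 1 at all 8 genes, where at C1337 and C1842 it was 1.17 to 1.25 times. In NAT10(-) the C12 sites kept 7.22% to 35.0% of the NAT10-WT level, with the highest share at TRL-TAG3-1, at 8.35% and 14.8% against 3.07% and 5.04%.

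Summed over all covered genes, C12 of tRNA-Leu (26 of 30 genes) was read as T in 1.86% and 4.30% of NAT10-WT reads against 0.789% and 1.24% of NAT10(-) reads. For tRNA-Ser (20 of 24 genes) the levels were 2.75% and 4.66% against 0.420% and 0.445%. Both amino acids were higher in NAT10-WT in each replicate, with no overlap between the groups. The isoacceptors differed in level. Leu TAG was the highest at 7.34% and 14.2% against 3.01% and 4.74%, and Leu CAA the lowest at 0.153% and 0.505% against 0.144% and 0.147%, where replicate 1 of both genotypes did not differ beyond its binomial intervals.

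Between these, the 4 serine isoacceptors lay close together in NAT10-WT. Ser AGA was at 2.54% and 3.49%, Ser CGA at 2.66% and 5.19%, Ser GCT at 3.09% and 4.64% and Ser TGA at 2.35% and 5.29%, a spread between isoacceptors that was no wider than that between replicates. In NAT10(-) they ran from 0.175% (Ser AGA, replicate 1) to 0.950% (Ser TGA, replicate 2). Mock levels over all tRNA-Ser genes were 0.0104% to 0.0822%, and over tRNA-Leu genes 0.179% to 0.326%.

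**Figure D3:**
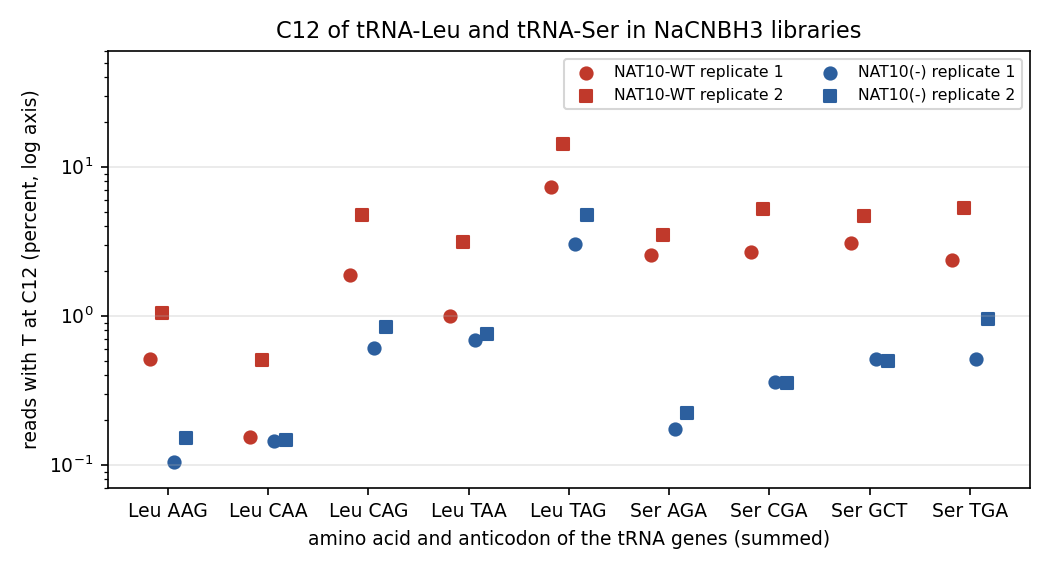
Percent of reads with T at C12 (log axis), summed over the covered tRNA genes of each anticodon, in the 4 NaCNBH3 libraries, with 1 point per library. NAT10-WT (red) is above NAT10(-) (blue) at all 9 anticodons in each replicate, closest at Leu CAA in replicate 1 (0.153% against 0.144%).

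Valine tRNA is not a known substrate, and at TRNAV-CAC C6 the level was low but separate. The copy that was called had 47 of 1412 and 25 of 981 reads with T in NAT10-WT (3.33% and 2.55%) and 0 of 1343 and 0 of 1571 in NAT10(-), where 0 of 1343 allows up to 0.223%. The other copy of the same sequence, TRV-CAC4-1, had more reads and was at 0.273% and 0.230% against 0.0165% and 0.0412%, and both together were at 0.837% and 0.696% against 0.0135% and 0.0339%. The share of T thus depended on which copy of the gene the reads were placed on.

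The chromosome 5 locus had the highest level of all, 75.7% and 94.1% in NAT10-WT (210 and 1237 reads) against 20.5% and 30.7% in NAT10(-) (39 and 88 reads). Its next base, an A in GRCh38 where 18S has G, was read as G in 100% of 188 and 99.8% of 1216 NAT10-WT NaCNBH3 reads, and in 88.3% of 77 reads in NAT10(-) replicate 2. In mock that base was G in 96.9% of 32 and 68.3% of 60 NAT10-WT reads and in 45.7% of 35 reads in NAT10(-) replicate 2. In all 4 NAT10-WT libraries most reads at this locus therefore carried the letter of 18S and not that of the locus, and the locus was deepest in NAT10-WT NaCNBH3 replicate 2. It is given here as a locus and not as a separate transcript.

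The remaining 3 sequences lacked CCG and differed least. TRN-GTT3-1 was at 33.2% and 36.1% in NAT10-WT against 27.4% and 26.5%, and in mock at 27% and 37.3% against 24.1% and 26.4%. TRN-GTT2-7 was at 12.1% and 12.3% against 7.93% and 8.47%, and 28S C3578 at 3.94% and 1.99% against 2.89% and 1.45%, where the groups overlapped. In the rDNA copy of most reads, 28S C3578 ran the other way, at 0.328% and 0.529% in NAT10-WT against 0.482% and 0.670%. None of these 3 was raised over mock in NAT10-WT, and none passed edgeR without the replicate number in the fit (adjusted p = 1 at each). With it, they passed at adjusted p = 0.00598, 0.0177 and 0.000498.

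A direct comparison of NaCNBH3 with mock within each genotype gave a further measure. The same test called 239 of 117994 C positions (0.203%) as raised over mock in NAT10-WT and 89 (0.0754%) in NAT10(-). Of the 25 sequences, 21 were raised in NAT10-WT, and 4 in NAT10(-): 18S C1337, 18S C1842, TRL-TAG2-1 C12 and TRL-TAG3-1 C12. The exceptions in NAT10-WT were TRN-GTT3-1, TRN-GTT2-7, 28S C3578 and SNORA79B. A test of the interaction of genotype and treatment with limma over 38731 positions called 0, with 1571 at an unadjusted p under 0.05, and 0 with edgeR.

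How far the calls hold against the spread between replicates depended on the model. Among 34530 C positions with 10 or more T reads, edgeR called 94 higher in NAT10-WT (0.272%) and 1 lower, or 159 and 10 with the replicate number as a block, and limma on log2 odds, which takes no account of read depth, called 19 higher and 0 with the block. Of the 95 edgeR calls 69 were among the 74 loci, 93 of the 94 higher ones were in CCG, and 22 of the 25 sequences passed. In limma with copies summed, the lowest adjusted p among the 25 was 0.187 (0.501 with the block), and with the copy of most reads alone 4 of 25 passed, SNORD126 and SNORD87 (0.0204 each) and 18S C1842 and SNORA79B (0.0424 each). An exact permutation test of 2 against 2 libraries cannot give a p below 0.33.

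Of the edgeR calls, 26 loci (20 distinct sequences) were not among the 74, and all 19 distinct ones that were higher in NAT10-WT had CCG. SNORD18A and SNORD18C, which lie with SNORD18B in RPL4, are shown because the bases around the C are shared with SNORD18B. SNORD18C (chr15:66501290-66501290) was at 2.29% and 1.98% in NAT10-WT against 0 of 668 reads and 0.399% in NAT10(-) (adjusted p = 0.00975), and SNORD18A (chr15:66503284-66503284) at 0.937% and 1.68% against 0 of 1012 reads and 0.216% (adjusted p = 0.0253). RNU5D-1 (chr1:44731115-44731115), a U5 snRNA gene, was at 0.477% and 0.496% against 0.109% and 0.0599% (adjusted p = 0.000538).
SNORD18A: ttcattggtCCGtgtttctga
SNORD18C: acttaaggtCCGtgtttctga
RNU5D-1: taaagatttCCGtggagagaa

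Only 2 of these lay in coding exons of mRNAs, and both encode ribosomal proteins. RPL13 (chr16:89562953-89562953) had T in 5 of 127 and 6 of 86 NAT10-WT reads (3.94% and 6.98%) and in 0 of 119 and 0 of 165 NAT10(-) reads, which allow up to 2.52% and 1.82% (edgeR adjusted p = 0.0400). RPS16 (chr19:39433701-39433701, minus strand) had T in 14 of 244 and 5 of 162 reads against 0 of 182 and 2 of 407 (adjusted p = 0.0253). Neither passed Fisher's exact test in both replicates, and both rest on few reads.
RPL13: cgctagtctCCGtatggcccg
RPS16: catccgtgtCCGtgtaaaggg

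Wildtype Hep3B cells and FKBP cells, which carry the degron with no added plasmid, were compared in libraries that share none with the above. Of the 74 loci, 38 (51.4%) were also higher in Wildtype than in FKBP, where 69 of 151148 C positions were called (0.0457%), so that the shared loci were 55.1% of that list. Of the remaining loci, 4 were lower in Wildtype, namely 3 copies of 28S C3578 and 1 of TRN-GTT3-1. Counted by distinct sequence, 8 of 25 were shared: the rDNA-like locus, the 4 sites of 18S rRNA, SNORD126, SNORD87 and SNORD18B. SNORD126 was at 4.44% and 5.60% in Wildtype against 0.210% and 0.197% in FKBP, and SNORD87 at 6.4% and 5.93% against 0.0595% and 0.0659%.

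The other 17 sequences were not called higher in Wildtype, among them all 8 tRNA C12 sites, the 3 spacer sites, SNORD46 and SNORA79B. SNORA79B was at 0.116% and 0.202% in Wildtype against 0.203% and 0% in FKBP, and TRL-TAG3-1 C12 at 7.01% and 20.1% against 7.67% and 8.95%. Summed over genes, tRNA-Leu C12 was at 1.75% and 5.82% against 1.44% and 1.95%. At SNORA79B, TRL-TAG3-1 C12 and the summed tRNA-Leu genes, the groups overlapped. They also overlapped at TRS-CGA3-1 C12, at 1.41% and 3.63% in Wildtype against 1.51% and 0.907% in FKBP. At the rest of the 8 C12 sites both Wildtype libraries lay above both FKBP libraries. TRL-AAG2-2 C12, for example, was at 1.13% and 3.15% against 0.173% and 0.225%. The summed tRNA-Ser genes did not overlap either, with C12 at 1.92% and 4.30% against 1.07% and 0.841%. For SNORD46 the Wildtype levels were 0.453% and 0.189% and the FKBP levels 0.179% and 0.154%, for 5′ ETS C2278 0.299% and 0.478% against 0.0517% and 0.125%, and for 18S C1317 0.376% and 0.400% against 0.0769% and 0.140%. At C1337 Wildtype had 70.4% and 91.1%, beside 62.3% and 72.9% in NAT10-WT, and differences between NAT10-WT and Wildtype were not tested.

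Bases modified by other enzymes were also compared. At C34 of the mitochondrial tRNA for methionine, a 5-formylcytidine that NaCNBH3 likewise turns into T reads, the level was at 53.3% and 51.9% in NAT10-WT and at 52.1% and 52.0% in NAT10(-), against 0.240% to 0.307% in mock. U1248 of 18S rRNA, a hypermodified uridine, was misread in 22.3% and 21.7% of NAT10-WT NaCNBH3 reads and in 20.3% and 19.5% of NAT10(-) reads, and in mock in 18.3% and 21.7% against 19.4% and 19.1%. The first of these differed between genotypes by less than between replicates, while U1248 was slightly higher in NAT10-WT after NaCNBH3 and overlapped in mock.

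At other kinds of mismatch, 6 of 1210798 position and base pairs (0.000496%) were higher and 13 (0.00107%) lower in NAT10-WT NaCNBH3 libraries, and in mock 6 of 1175299 (0.000511%) were higher and 10 (0.000851%) lower. With copies summed, 88 were higher and 96 lower in NaCNBH3, and 124 higher and 91 lower in mock. The mock calls with the widest differences included genes of U3, the snoRNA of the small-subunit processome, in which a G was read as A. SNORD3C was at 44.8% and 49.8% in NAT10-WT mock libraries against 70.6% and 66.2%, and SNORD3D at 36.9% and 34.7% against 51.3% and 49.9%, and these genes are near-identical copies between which reads can be split. Among the lower ones in NaCNBH3 were 5 tRNA genes at G26, a base that carries N2,N2-dimethylguanosine, read as A. TRL-TAG1-1 G26 was misread in 53.2% and 56.5% of NAT10-WT reads against 70.8% and 69.3%, TRL-CAG2-2 G26 in 34.3% and 35.3% against 51.0% and 45.5%, and TRS-GCT4-2 G26 in 33.6% and 24.3% against 52.6% and 42.8%. TRL-TAG3-1 and TRL-AAG2-3 G26 were lower in mock as well. These tRNAs belong to the leucine and serine families whose C12 is acetylated.

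Over all covered tRNA-Leu genes, G26 was misread in 77.0% and 74.4% of NAT10-WT NaCNBH3 reads against 86.7% and 83.4% in NAT10(-), and in mock in 69.8% and 73.0% against 79.0% and 77.4%. For tRNA-Ser the NaCNBH3 levels were 71.3% and 71.9% against 83.5% and 74.8%, and in mock 69.5% and 76.8% against 79.3% and 74.1%, which overlapped. In Wildtype and FKBP, tRNA-Leu G26 in NaCNBH3 was at 70.5% and 77.1% against 85.5% and 77.3%. The tRNA-Leu difference was thus present with and without NaCNBH3. Cytosolic tRNAs as a class, given below, made up a smaller share of base calls in NAT10-WT in NaCNBH3, while in mock their shares overlapped. No depth is given for the tRNA-Leu genes as a group, and a link between G26 misreading and depth was not tested.

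**Figure D4:**
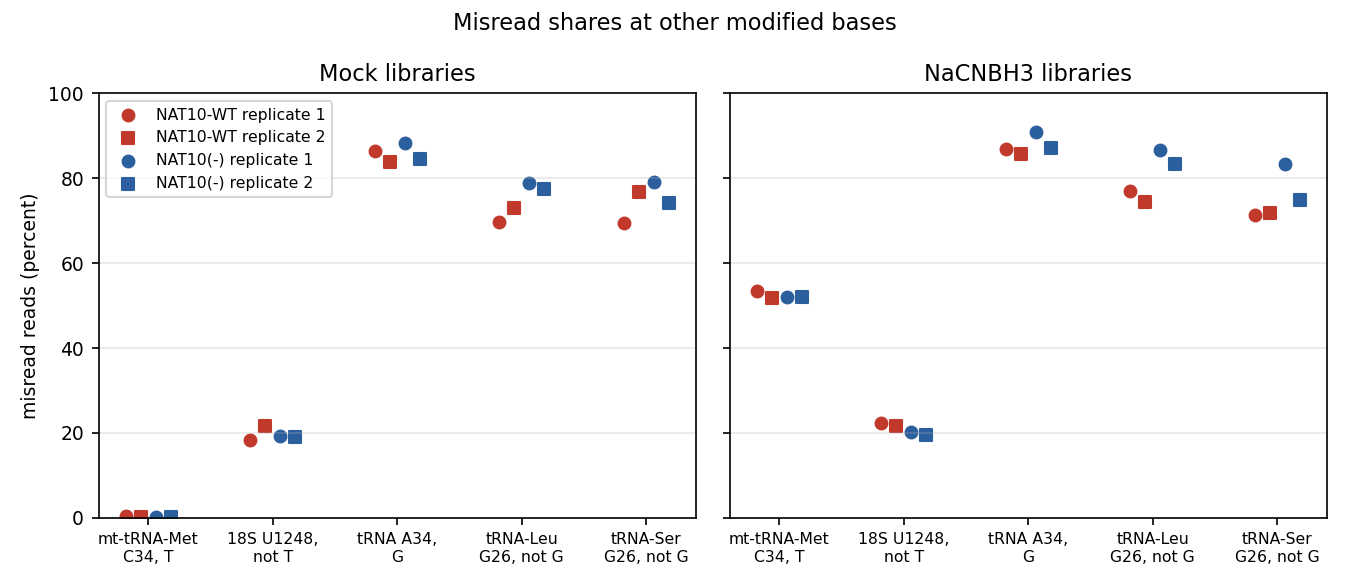
Percent of reads that do not show the unmodified base (T at mitochondrial tRNA-Met C34, any other base at 18S U1248 and tRNA G26, G at tRNA A34), in mock and NaCNBH3 libraries with 1 point per library. Mitochondrial C34 is near 52% in all 4 NaCNBH3 libraries and below 0.31% in mock, and tRNA-Leu G26 is lower in both NAT10-WT libraries than in both NAT10(-) libraries in each treatment.

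Inosine at A34, the wobble base that is deaminated and read as G, was also called lower in NAT10-WT in single genes. TRS-AGA2-1 A34 was read as G in 50.5% and 47.1% of reads against 64.5% and 57.8%, and TRL-AAG2-3 A34 in 93.0% and 91.1% against 96.0% and 93.8%. Over all covered genes with A34 the levels were 86.8% and 85.7% against 90.9% and 87.1% in NaCNBH3, and 86.4% and 83.9% against 88.3% and 84.5% in mock, where the groups overlapped. Outside tRNA, GAS5, a long non-coding RNA that hosts snoRNAs, had an exonic A (chr1:173866651-173866651, minus strand) read as G in 0.699% and 0.680% of NAT10-WT reads against 2.46% and 2.53%, and in mock in 0.691% and 0.469% against 2.21% and 2.50%. MT-TG A9, a methylated base of mitochondrial tRNA-Gly, was read as T in 61.7% and 52.7% against 48.5% and 40.1%, while the same base of mitochondrial tRNA-Phe, MT-TF A9, was called lower in NAT10-WT, at 25.9% and 19.4% against 34.4% and 24.2%.

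None of these passed a model over replicates: limma and edgeR called 0 of 72109 tested in NaCNBH3 and 0 of 53828 in mock. At an unadjusted p under 0.05 limma had 1057 higher and 1088 lower in NaCNBH3 and 863 and 917 in mock, and edgeR 728 and 786, and 657 and 651.

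Relative depth per gene served as a measure of how much of each RNA was sequenced. As fewer transcripts per cell and a change in the makeup of the library cannot be told apart in such data, all values are relative to the other genes. Mean depth was scaled to be comparable between libraries (TMM), and log2 differences are NAT10-WT minus NAT10(-). With edgeR 0 of 1286 genes in mock and 0 of 1332 in NaCNBH3 passed (0% each), where an unadjusted p under 0.05 was reached by 6 higher and 0 lower genes in mock and by 4 higher and 16 lower genes in NaCNBH3. DESeq2 and limma also called 0. In mock, 26 genes passed as higher without NAT10(-) replicate 2, and 1 as higher and 3 as lower without NAT10(-) replicate 1. Without overlap between groups, 103 genes (8.01%) were higher and 75 (5.83%) lower in mock, and 100 (7.51%) higher and 175 (13.1%) lower in NaCNBH3.

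With the replicate number as a block, 2 genes passed in NaCNBH3, both leucine tRNA genes and both lower in NAT10-WT. TRL-AAG1-1 had a scaled depth of 228 and 370 in NAT10-WT against 704 and 793 in NAT10(-), a log2 difference of -1.33 (SE 0.35, edgeR adjusted p = 0.999, or 0.000625 with the block). TRL-AAG1-2 had 435 and 649 against 1176 and 1219, a log2 difference of -1.15 (SE 0.33, adjusted p = 0.999, or 0.0023 with the block). In mock they were at 582 and 594 against 1079 and 751, and at 904 and 846 against 1613 and 1047, lower in NAT10-WT in both replicates.

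Cytosolic tRNAs as a class leaned the same way in NaCNBH3. Of 311 tRNA genes, 6 were higher and 70 lower without overlap, where 7.51% of all genes were higher and 13.1% lower. Their median log2 difference was -0.21, beside -0.016 over all genes. In mock 2 of 301 were higher and 7 lower, where 8.01% of all genes were higher and 5.83% lower. As a share of all base calls, tRNAs made up 3.58% and 3.73% in NAT10-WT NaCNBH3 libraries against 5.24% and 4.96% in NAT10(-), and in mock 3.93% and 3.49% against 5.75% and 3.86%, which overlapped. Mitochondrial tRNAs (20 genes) had 0 higher and 10 lower in NaCNBH3, with a median of -0.33, but 0 higher and 1 lower in mock. The snRNAs (51 genes) had 12 higher and 2 lower in NaCNBH3, with a median of 0.37, and 14 higher and 1 lower in mock.

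Groups of mRNAs were described from lists of genes by function, none of which had a member that passed. Replication-dependent histone genes, which encode the core and linker histones, had 45 of 68 members tested in mock with a median log2 difference of -0.26 and 46 in NaCNBH3 with -0.21. Of these, 22 and 28 were lower without overlap and 0 and 2 higher, where 5.83% and 13.1% of all genes were lower and the medians over all genes were -0.0045 and -0.016. H3C10 had a scaled depth of 50.4 and 58.8 in NAT10-WT against 65.4 and 92.8 in NaCNBH3. Histone genes share sequence, so reads can be split between them.

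Liver secreted proteins (13 of 27 tested) had medians of -0.37 in mock and -0.31 in NaCNBH3, with 4 and 5 members lower without overlap, beside the same 5.83% and 13.1% over all genes. AHSG, the fetuin of plasma, was at 151 and 106 against 188 and 226 in NaCNBH3. Cytosolic ribosomal proteins (76 of 86 tested) had medians of -0.09 and 0.02, close to those over all genes. Among heat shock and ER chaperones (9 tested in mock, 8 in NaCNBH3) the medians were 0.18 in both, and HSPA5, the ER chaperone BiP, had 107.9 and 104.1 against 40.3 and 67.1 in NaCNBH3 (log2 difference 0.95, SE 0.36, unadjusted p = 0.0163, adjusted p = 0.999) and 85.2 and 79.1 against 37.2 and 66.3 in mock.

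Few mRNAs of the ac4C and rRNA modification machinery were deep enough to test. Of 20 genes for ac4C and snoRNP factors, 4 were tested in mock and 3 in NaCNBH3, with log2 differences of -0.19 to 0.20 and -0.27 to 0.19. FBL, the methyltransferase of C/D snoRNPs, had a scaled depth of 90.9 and 76.7 in NAT10-WT mock libraries against 67.1 and 79.3. Of 30 genes of the small-subunit processome, which builds the 40S subunit, 2 and 3 were tested, among them NPM1 at 78.9 and 57.8 against 35.0 and 153 in mock. The NAT10(-) replicates differed from each other more than the genotypes did.

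Pre-rRNA was covered along its spacers, whose relative depth differed between genotypes. The 5′ ETS made up 9.56% and 7.14% of base calls in NAT10-WT mock libraries against 11.6% and 10.1% in NAT10(-), and 7.67% and 6.63% against 10.0% and 10.6% in NaCNBH3. Mature 28S rRNA moved the other way, with 41.5% and 44.9% against 39.3% and 40.2% in mock and 43.1% and 44.4% against 41.5% and 37.6% in NaCNBH3. Of 27 RNA classes, 3 were higher and 5 lower in NAT10-WT without overlap in mock, and 5 and 5 in NaCNBH3. Reads counted at several rDNA copies weigh more in these shares.

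Within the precursor, the ratio of mean depth in the 5′ ETS to that in ITS2 was lower in NAT10-WT. It was 0.610 and 0.550 in NAT10-WT mock libraries (0.580 ± 0.0422, SD, n = 2) against 0.876 and 0.905 in NAT10(-) (0.891 ± 0.0203). In NaCNBH3 it was 0.553 and 0.572 (0.562 ± 0.0138) against 0.835 and 0.932 (0.883 ± 0.0687). The differences of 0.310 and 0.321 were several times the spread between replicates, and the 4 libraries of each genotype did not overlap, although mock and NaCNBH3 fractions share an RNA. An exact permutation test of 2 against 2 could not go below 0.33.

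Wildtype cells were at 0.569 and 0.567 in mock and 0.608 and 0.586 in NaCNBH3, and FKBP cells at 0.627 and 0.752 and at 0.583 and 0.718. Over ITS1 in place of ITS2, the ratio was 1.42 and 1.75 in NAT10(-) mock libraries and 1.51 and 1.79 in NaCNBH3, against 1.37 and 1.28 and 1.41 and 1.41 in NAT10-WT. The gap, as a share of the NAT10-WT mean, was 53.5% in mock and 57.1% in NaCNBH3 over ITS2, and 19.6% and 16.9% over ITS1. As separate features in the fit over genes, 5′ ETS, ITS2 and 3′ ETS did not pass (edgeR adjusted p = 0.997 in mock and 0.999 in NaCNBH3). ITS2 had a scaled depth of 7028 and 7906 in NAT10-WT mock libraries against 5397 and 4379, and the 5′ ETS of 4459 and 4737 against 5212 and 4535, which overlapped.

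**Figure D5:**
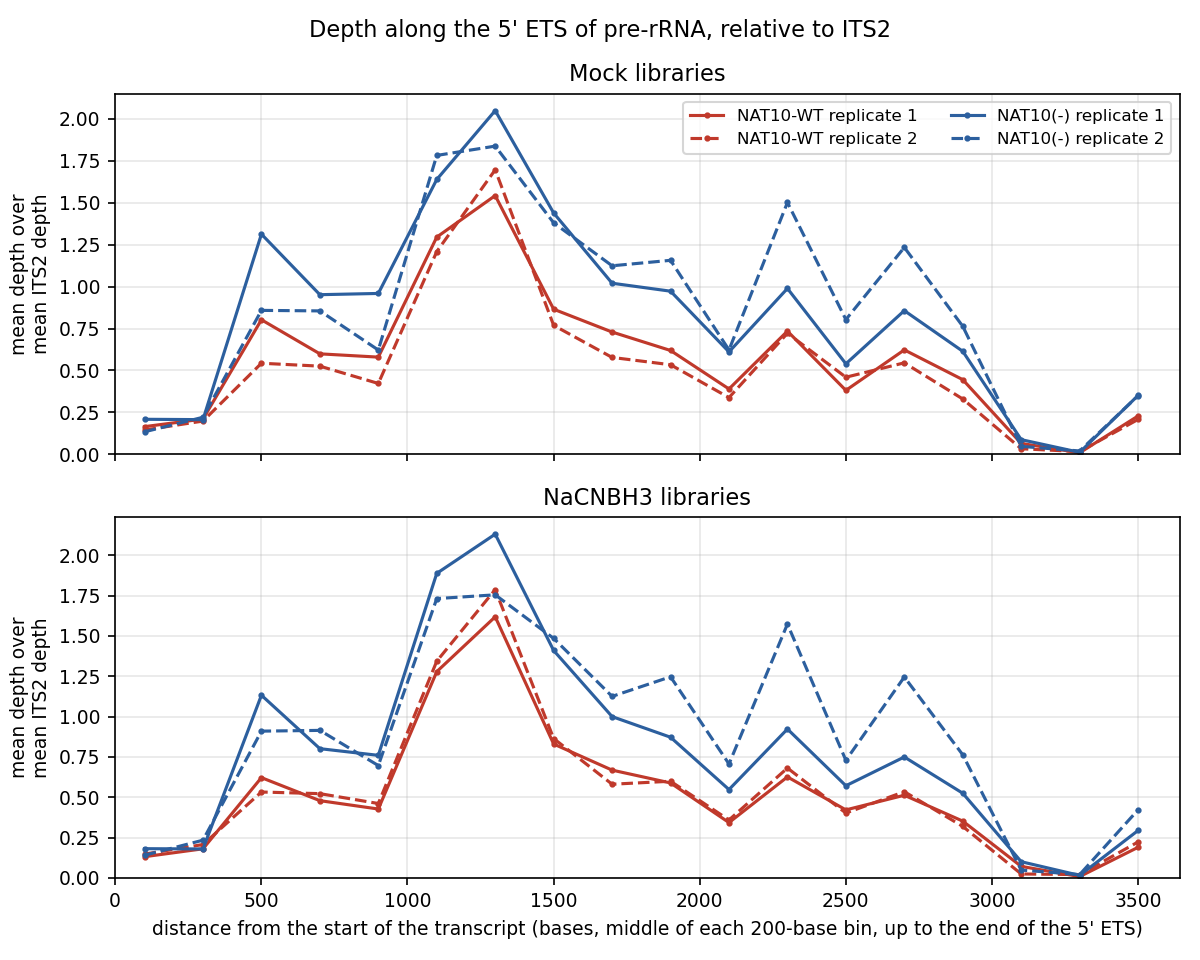
Mean depth in 200-base bins along the 5′ ETS of pre-rRNA, divided by the mean depth of ITS2, against the distance from the transcript start, for the 4 mock and the 4 NaCNBH3 libraries. Both NAT10(-) libraries lie above both NAT10-WT libraries in 14 of 18 bins in mock and in 13 of 18 in NaCNBH3, and below them in 0 bins.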

How the data were processed

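Hep3B RNA was sequenced after NaCNBH3 or mock treatment. Per the study's methods, rRNA was partly depleted, adapters carried a 10 nt molecular identifier, and cDNA was made with Induro reverse transcriptase. The deposited files hold raw counts of A, T, C and G per position and strand (30 or more reads, GRCh38), which the authors made from deduplicated aligned reads by pileup. Tools listed in the submitters' processing notes are STAR 2.7.9a, SAMtools 1.6, UMI-tools 1.1.5 and cutadapt 4.2. No normalization had been applied. Reads of repeated genes are counted at each copy, so copies are not independent, and depth stops near 20029 to 20049 reads, so positions at 19000 or more were left out of gene depths. Intervals and limits cover counting error only.

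Libraries were grouped by their labels. The batch labels and the comparison itself pair libraries by replicate number. Deviations from the group means of same-numbered libraries correlated at 0.092 (34530 C positions, NaCNBH3), 0.053 (26204, mock), 0.158 (1286 genes, mock) and 0.061 (1332 genes, NaCNBH3). The blocked fits are given where they change a call. P-values over 2 replicates measure only the spread between these transductions.

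C>T and the 11 other mismatch kinds were tested with Fisher's exact test (two-sided, own code compared with scipy 1.17.1 at simulated positions) per replicate, Benjamini-Hochberg over all positions of a treatment. As alternatives, log2((T + 0.5)/(C + 0.5)) was fitted with limma 3.58.1, and T and C counts with edgeR 4.0.16 (quasi-likelihood, with a library effect), on positions with 10 or more T reads. Gene depth was the mean depth over 50 or more exonic positions, rounded, tested with edgeR (TMM), DESeq2 1.42.0 and limma, in R 4.3.3 with adjusted p under 0.05. Scripts used Python 3.11.15. Fisher's test, edgeR and limma on C>T, and edgeR on gene depth, were also run on simulated data. Genes came from GENCODE 44, and the reference base matched hg38 at every position. Sequences were read from hg38, with gene names from GENCODE and RefSeq.

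Named positions were the known NAT10 sites and other modified bases, the 15 called C>T positions with the highest NAT10-WT level, up to 20 outside rRNA and tRNA, up to 10 under 1%, up to 5 lower, and up to 3 of each other mismatch kind. The edgeR-only positions, the base before CCG and the 5′ ETS ratio were chosen after their values were seen. The members and lists were chosen with earlier results of these data known. The libraries of the NAT10 mutants, 16 in number, were not used here. Of 8 marker genes of other cell types, LYZ alone was covered. Further lists by function (translation factors, glycolysis, ATF4 targets, interferon response, cell division, lipid synthesis, mitochondrial mRNAs, cytoskeleton, nuclear RNAs) had 0 members past the threshold in either treatment, with medians of -0.33 to 0.41.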

Additional observations from a re-analysis of the deposited data

Results flagged for a closer look

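At 3 of the 25 sites, a pair of asparagine tRNA sites and 28S C3578, the difference ran the opposite way in the other genotypes with and without NAT10. TRN-GTT3-1 was higher in NAT10-WT than in NAT10(-) by 7.71 percentage points in NaCNBH3, and in Wildtype minus FKBP it was -7.495 points, with Wildtype at 13.6% and 16.3% and FKBP at 25.2% and 19.7%. TRN-GTT2-7 was higher in NAT10-WT by 3.97 percentage points, and in Wildtype minus FKBP it was -2.78 points, with 3.66% and 4.01% against 7.5% and 5.73%. 28S C3578 was higher in NAT10-WT by 0.799 percentage points, and in Wildtype minus FKBP it was -0.936 points, with 0.726% and 0.762% against 2.15% and 1.21%. Both replicate pairs of one comparison moved opposite to both pairs of the other at all 3 sites, although at 28S C3578 the NAT10-WT and NAT10(-) libraries overlapped. The difference between the comparisons was not tested, and the tRNA sites share a sequence.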

How the results depend on the processing

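With 2 libraries per group, replicate spread is estimated from few values, and positions under 30 reads in any compared library were not tested. Of C>T positions in NaCNBH3, the count higher in NAT10-WT (74) was 71 to 87 with other filters, thresholds or copies summed, 54 with a difference of 1 percentage point, and 86 with limma and 5 added to the reads with T and to those without. It was 90 to 119 with 1 replicate left out, where only 1 test must pass, 19 with limma, 0 with limma and the replicate block, 94 with edgeR and 159 with edgeR and the block. The count lower (0) was 1 with 100 reads, 5 and 3 with T over 1% and 0.1%, 40 with copies summed (copies share reads), 3 to 23 with 1 replicate left out, 1 with edgeR and 10 with its block. At an unadjusted p under 0.05, limma had 620 higher and 427 lower.

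In mock the count (22, all higher) was 77 with copies summed (33 lower), 33 to 67 with 1 replicate left out (5 and 26 lower), 0 with limma with or without the block (469 higher and 538 lower at an unadjusted p under 0.05), 11 with edgeR and 39 with its block (13 lower). For the other mismatches, the 19 in NaCNBH3 and 16 in mock were 184 and 215 with copies summed (96 and 91 lower, where the unsummed calls had 13 and 10 lower), 135 to 167 and 120 to 145 with 1 replicate left out, and 0 with limma and edgeR, each with and without the replicate block.

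At the 25 sequences, limma called 0, and 4 with the copy of most reads. With that copy the C>T difference at 28S C3578 reversed to -0.147 percentage points, 3 others moved by 1 SD or more, and 21 by less. Most of these 21, among them the tRNA C12 and snoRNA sites, had a single tested copy, so their difference could not change. Gene depth in mock called 0, and 0 to 26 with 1 library left out: 4 without NAT10(-) replicate 1 and 26 without NAT10(-) replicate 2. In NaCNBH3 it called 0, and 2 with the replicate block. The 5′ ETS over ITS2 difference in mock (0.310) was 0.266 to 0.355 with 1 replicate left out and 0.259 over ITS1, and in NaCNBH3 (0.321) 0.238 over ITS1, where the ratios themselves are higher: relative to NAT10-WT the gap fell from 53.5% to 19.6% in mock and from 57.1% to 16.9% in NaCNBH3. Why these values moved was not tested, and the edgeR fits beyond the first, the alternative interaction fits, the 5′ ETS settings and the libraries left out at the 25 sequences were chosen after seeing the data. Beyond the values given here and for TRN-GTT3-1, TRN-GTT2-7 and 28S C3578 in the report, the replicate block changed no other count.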
